A study of Mus musculus with 4 samples.

Results

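The chemokine ligands of mouse epidermal keratinocytes in culture were examined, that is, every gene on the array named Ccl or Cxcl followed by a digit, together with Pf4, Ppbp, Xcl1 and Cx3cl1. The rule uses names alone and no measured value, and was proposed with earlier results of these data known. They come to 35 genes of the 27670 gene names on the array, covered by 45 probes at 54 spots of each array. On the array Pf4 is named Cxcl4, Ppbp is named Cxcl7 and Ccl27a is named Ccl27. By the RefSeq gene table, 12 of the 35 genes lie on chromosome 11 and 11 lie on chromosome 5, where the large CC and CXC clusters are, and the others lie on chromosomes 1, 4, 6, 8 and 13.

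The study compared keratinocytes of 2 mice of each of 2 Casp8 genotypes, all labelled age P3 and all carrying K5-Cre. Cells called F/- came from mice with 1 loxP-flanked and 1 null allele of Casp8, and cells called F/+ from mice whose flanked allele was paired with a wild-type allele, so that both genotypes hold Cre and a flanked allele. K5-Cre uses the promoter of keratin 5 and so acts in the basal layer of the epidermis. The product of Casp8, caspase-8, is a protease that starts apoptosis downstream of death receptors. RNA was taken from F/- and F/+ cells at passage 3 (late) and at passage 1 (early), and on each of the 4 arrays, 2 per passage, Cy3-labelled F/- RNA was hybridised with Cy5-labelled F/+ RNA of the same pair. The cultures were unsorted epidermal cells released with Dispase and trypsin. No array had the dyes exchanged, so any dye effect adds to every genotype ratio. For the Cy5 RNA of both late arrays the source name gives the first passage, while the title, the description and the passage entry give the late passage, which was followed here.

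Chemokines are small secreted proteins that bind G protein-coupled receptors on leukocytes and direct their migration. They are grouped by the spacing of their first cysteines into CC, CXC, XC and CX3C ligands. In skin, keratinocytes make some of them steadily, among them Ccl27a and Cxcl14, and others on stimulation by interleukin-1, tumour necrosis factor or interferons. NF-kB and interferon regulatory factors are well-known inducers of these genes.

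Ratios are given as log2 of F/- over F/+ after loess normalization of each array, and changes with passage as log2 of passage 3 over passage 1 within a genotype. The share of spots well above background was 75.8% to 85.4% in the F/- channel and 80.6% to 87.9% in the F/+ channel, and no spot was saturated. The Casp8 probe had log2 ratios of 0.47 and -0.20 late and 0.42 and 0.18 early, in pairs 1 and 2. Where the probe lies relative to the deleted part of the gene is not stated in the sources at hand, and the labels were therefore not checked by it. All 8 keratinocyte markers, among them Krt5 and Krt14, were above background in both channels on every array. A change in bulk RNA cannot tell fewer cells of a type apart from less RNA per cell.

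Promoter sequences were matched by symbol to 25 of the 35 genes in a RefSeq table of assembly GRCm38.p6, as 28 windows of 250 bases upstream of the start. The windows with a match to the NF-kB consensus are shown, because NF-kB genes are among the inducers described at the end. Both strands were searched, and the capitals mark the matches, to which the window of Cxcl10 adds a match to the interferon-stimulated response core (GAAA, NN and GAAA in a single run, N being any base). The windows are chr5:90890995-90891244 on the plus strand for Cxcl1, chr5:90903649-90903898 on the plus strand for Cxcl2, chr5:92348890-92349139 on the minus strand for Cxcl10, chr1:83116516-83116765 on the plus strand for Ccl20 and chr11:83578637-83578886 on the minus strand for Ccl9.
Cxcl1: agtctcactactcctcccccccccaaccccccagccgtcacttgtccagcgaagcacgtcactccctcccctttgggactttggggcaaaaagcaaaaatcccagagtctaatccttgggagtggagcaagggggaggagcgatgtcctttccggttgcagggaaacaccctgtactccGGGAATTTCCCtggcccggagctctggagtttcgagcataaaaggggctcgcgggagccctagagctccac
Cxcl2: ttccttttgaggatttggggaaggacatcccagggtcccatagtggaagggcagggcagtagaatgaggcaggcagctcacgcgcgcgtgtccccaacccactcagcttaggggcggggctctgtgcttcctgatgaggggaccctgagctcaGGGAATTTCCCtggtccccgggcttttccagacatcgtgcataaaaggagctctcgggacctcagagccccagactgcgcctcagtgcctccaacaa
Cxcl10: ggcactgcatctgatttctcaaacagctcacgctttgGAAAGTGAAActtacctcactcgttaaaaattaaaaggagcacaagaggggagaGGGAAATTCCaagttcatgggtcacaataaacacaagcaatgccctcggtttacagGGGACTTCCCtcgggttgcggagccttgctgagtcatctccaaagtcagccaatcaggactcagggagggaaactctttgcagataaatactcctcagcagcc
Ccl20: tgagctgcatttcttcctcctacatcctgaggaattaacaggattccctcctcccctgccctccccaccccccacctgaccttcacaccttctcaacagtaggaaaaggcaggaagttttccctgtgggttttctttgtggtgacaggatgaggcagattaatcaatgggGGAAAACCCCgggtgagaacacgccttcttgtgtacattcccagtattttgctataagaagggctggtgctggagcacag
Ccl9: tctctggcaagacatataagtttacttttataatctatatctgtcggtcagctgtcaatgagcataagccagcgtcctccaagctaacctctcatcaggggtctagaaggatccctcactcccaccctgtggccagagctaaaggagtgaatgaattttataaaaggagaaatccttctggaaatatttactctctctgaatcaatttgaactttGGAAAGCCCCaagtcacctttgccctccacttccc

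These 5 windows are 17.9% of the 28, and the consensus is found in 3.90% of the 32851 promoter windows of the table. Cxcl1 and Cxcl2 hold the same 11 capital letters, which are 2 overlapping matches. The interferon-stimulated response core was found in 3 of the 28 windows, those of Ccl19, Cxcl10 and Cxcl14, which is 10.7% against 2.98% of all windows. A match is a run of letters and not a measured binding site. As the values below show, Cxcl2 alone of the 5 genes was called between genotypes, higher in F/- cells. Ccl20 was below 0 on every array without a call. With passage Ccl9 and Cxcl2 were called, both lower at passage 3 in both genotypes, while Cxcl1, Cxcl10 and Ccl20 were not called.

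Of the 35 genes, 32 had a probe that 2 or more arrays measured well above background in either channel, and were tested, through 42 probes. The 3 that were left out are Ccl11, an eosinophil attractant, Ccl22, a ligand of Ccr4, and Cxcl13, the B cell attractant, which were above background on 1 array each. A total of 24 genes were above background in both channels on all 4 arrays. The tested genes that were dim in some channel are Ccl1, Ccl3, Ccl8, Ccl12, Cxcl9, Cxcl11, Cxcl15 and Xcl1. The gene was represented by the probe with the highest mean signal, and other probes are given beside it.

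At the late passage alone no chemokine probe passed an adjusted p of 0.05 for genotype, and neither did any of 35563 probes (0% called, smallest adjusted p = 0.0790 in limma's moderated test). The early passage alone gave the same count of 0 (0% called, smallest adjusted p = 0.0701). Unadjusted p-values under 0.05 were found for 10 chemokine probes late and 14 early, and for 20.0% and 20.6% of all probes. The mean over the 4 arrays had 18 such chemokine probes, and 29.4% of all probes. Over all 4 arrays, 5 of 42 chemokine probes were called, all higher in F/- cells, which is 11.9% against 8.84% of all probes (5.85% higher and 2.99% lower). The share of chemokine probes called was thus near that of all probes. Their median log2 ratio was 0.14 and that of all probes -0.01, with median sizes of 0.20 and 0.11. The 4 arrays were treated as separate although each pair of animals gave 2 of them.

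The 5 calls are Ccl6, Ccl2, Cxcl2, Pf4 and 1 of the 2 Cxcl16 probes. None of the 5 remained without the late array of pair 1, or without either early array, and none when a single average per pair was tested (smallest adjusted p = 0.0509). With the pair as a block the count was 10, by the addition of Ccl3 (adjusted p = 0.0372), Ccl7 (0.0280), Ccl9 (0.0331), Cx3cl1 (0.0337) and, in the lower direction, Ccl20 (0.0280). All probes had 3242 calls in that fit, against 3145 in the main fit. The blocked fit takes the difference between pairs out of the error. Its p-values for the mean ratio therefore leave out the variation between pairs of animals, and these added calls do not allow for it. Centring arrays on their medians in place of loess turned the split of all calls to 917 higher and 3050 lower of 3967. Ccl6, Ccl2, Cxcl2 and Pf4 were called higher under that scaling as well (1.82, 0.66, 0.64 and 1.30) and with the ratios of the scanner software (2.13, 0.87, 0.90 and 1.93). For Ccl2 the late array of pair 2 was at -0.05 after median centring. The plot of genotype ratios gives all 32 genes.

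**Figure D1:**
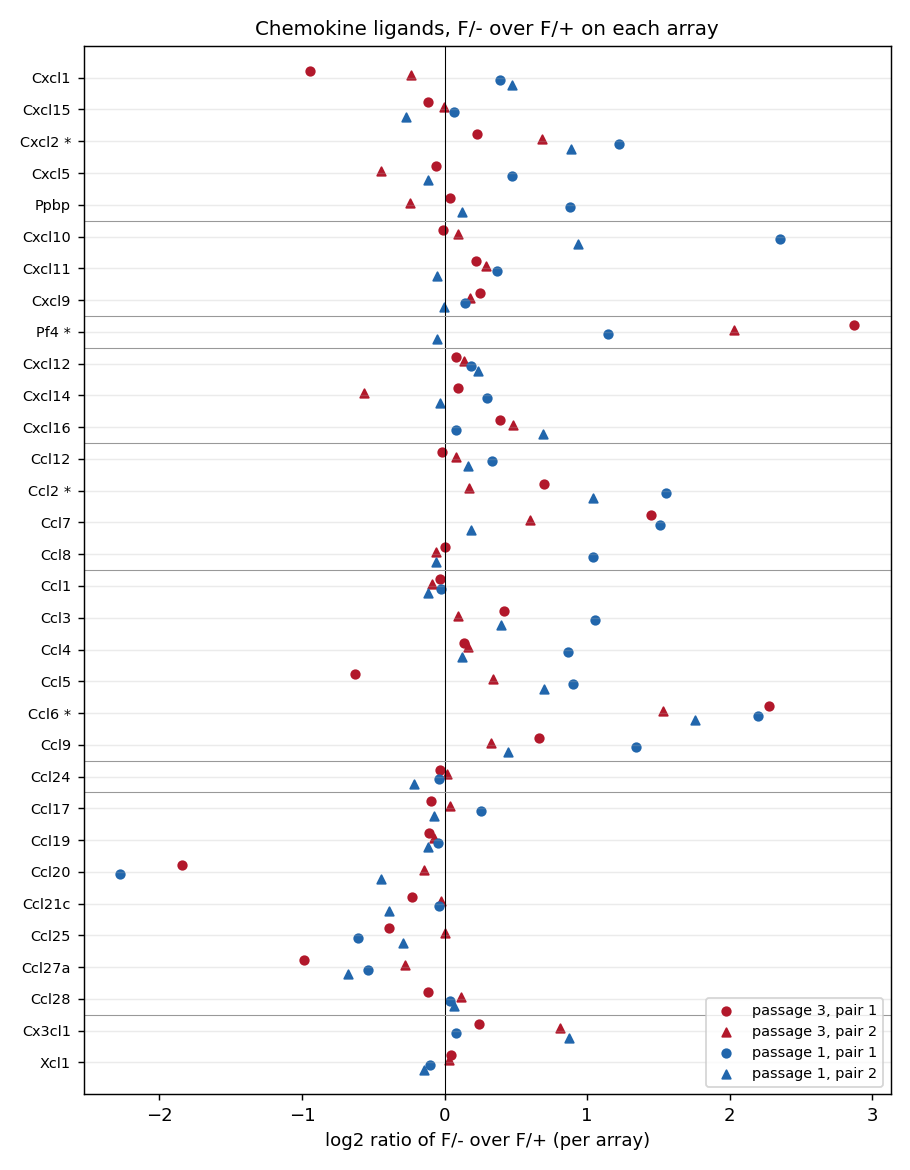
Log2 ratio of F/- over F/+ (horizontal axis) of the 32 tested chemokine genes on each of the 4 arrays, with red for passage 3, blue for passage 1, circles for pair 1 and triangles for pair 2. Grey lines separate groups by role, and an asterisk marks genes whose representing probe had an adjusted p under 0.05 over the 4 arrays. Ccl6 lies between 1.53 and 2.28 on all arrays, while Ccl20 ranges over -2.27 to -0.14.

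Among the 6 macrophage inflammatory CC ligands, Ccl6 was called and the other 5 were not. Ccl6, a mouse CC chemokine made by macrophages and other myeloid cells, had log2 ratios of 2.28 and 1.53 on the late arrays and 2.20 and 1.76 on the early arrays. Its F/- samples were higher than the F/+ samples on every array, with a mean of 1.94 ± 0.36 (SD, n = 4), a 3.84-fold difference (adjusted p = 0.0257). The ratio differed little between passages, with means of 1.90 late and 1.98 early. Its intensity had no overlap between genotypes: log2 values were 10.47, 9.90, 10.85 and 10.42 in F/- samples, against 8.19, 8.37, 8.66 and 8.67 in F/+ samples, in the order late pair 1, late pair 2, early pair 1 and early pair 2.

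Ccl9, a related macrophage chemokine whose receptor is Ccr1, had ratios of 0.66 and 0.33 late and 1.34 and 0.44 early (adjusted p = 0.0668), and was called with median centring (0.54, adjusted p = 0.0435) and with an offset of 0 (0.74, 0.0341). Ccl3, another Ccr1 ligand, had 0.42 and 0.09 late and 1.06 and 0.40 early (mean 0.49, adjusted p = 0.0833). For Ccl3 the ratios of the scanner software gave a mean of 1.44, which was called (adjusted p = 0.0399), as were the values with median centring (0.51, 0.0471) and with an offset of 0 (0.87, 0.0346). Ccl4, a chemokine made by activated macrophages and lymphocytes, had 0.14 and 0.16 late and 0.87 and 0.12 early (adjusted p = 0.188). In these 3 genes the ratio was positive on every array and highest on the early array of pair 1. Ccl5, which attracts T cells and monocytes, had -0.63 and 0.34 late and 0.90 and 0.70 early, and its second probe had -0.35 and 0.47 late and 0.74 and 0.73 early. Both early arrays thus had more Ccl5 signal in F/- cells, the late arrays were split, and no p passed for either probe (adjusted p = 0.275 and 0.148). Ccl1, a Ccr8 ligand that was above background on few late arrays, had ratios within -0.12 to -0.02.

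Among the 4 monocyte-attracting CC ligands, Ccl2, a ligand of Ccr2, was called. Its log2 ratios were 0.70 and 0.17 on the late arrays and 1.55 and 1.04 on the early arrays. All 4 were above 0 and the early ones were the higher, with a mean of 0.86 ± 0.58 (SD, n = 4), a 1.82-fold difference (adjusted p = 0.0323). The difference between passages, -0.86, did not pass the test (adjusted p = 0.825). The Ccl2 probe was printed at 10 spots of each array, which measures the error of a spot. The SD of its log2 ratio over spots was 0.020 and 0.033 on the late arrays and 0.048 and 0.038 on the early arrays. This is the error within an array and leaves out the variation of animals, labelling and hybridisation.

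**Figure D2:**
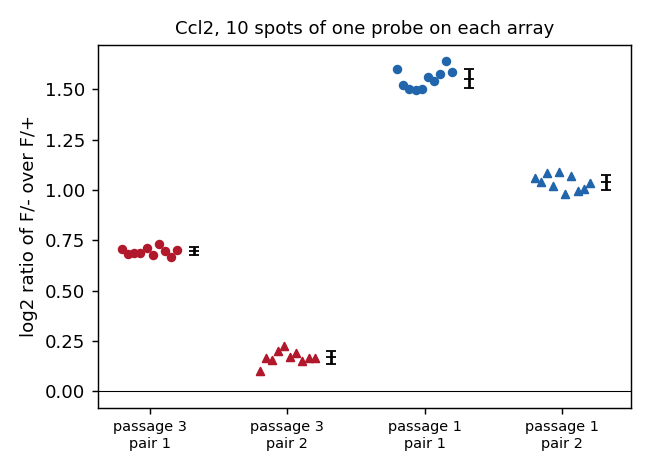
Log2 ratio of F/- over F/+ (vertical axis) of the 10 Ccl2 spots on each array (horizontal axis), with the mean and SD of the spots as a black mark beside them. Spots of 1 array lie close together, at 0.70 and 0.17 on average on the late arrays and 1.55 and 1.04 on the early arrays.

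Ccl7, a neighbour of Ccl2 on chromosome 11, had ratios of 1.45 and 0.60 late and 1.51 and 0.18 early, with a mean of 0.93 ± 0.65 (SD, n = 4, adjusted p = 0.0919), and was called with an offset of 0 (1.43, adjusted p = 0.0401). Its second probe had 0.69 and 0.14 late and 0.81 and -0.20 early (adjusted p = 0.292). Pair 1 had the higher ratio at both passages on both probes. Ccl8 had 0.01 and -0.06 late and 1.04 and -0.06 early, so that a single array stood apart. Ccl12, a Ccr2 ligand of the mouse, had -0.02 and 0.08 late and 0.33 and 0.16 early. Neither passed the test (adjusted p = 0.469 and 0.207).

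Of the 5 neutrophil-attracting CXC ligands, most of which bind Cxcr2, Cxcl2 was called. Its ratios were 0.23 and 0.68 late and 1.22 and 0.89 early, with a mean of 0.76 ± 0.42 (SD, n = 4), a 1.69-fold difference (adjusted p = 0.0293). All 4 arrays were above 0. Cxcl1, whose window holds the same NF-kB letters, had -0.94 and -0.23 late and 0.39 and 0.47 early. The late arrays were thus below 0 and the early ones above it, but with arrays centred on their medians the early array of pair 1 turned to -0.33 and the mean over the 4 arrays was -0.54 (adjusted p = 0.0703), against -0.08 with loess. The difference between passages, -1.02 with loess, did not pass the test (adjusted p = 0.820). Cxcl5, an epithelial neutrophil attractant, had -0.06 and -0.45 late and 0.47 and -0.12 early. Ppbp, which is also stored in platelets, had 0.04 and -0.24 late and 0.88 and 0.12 early. Neither kept a direction over the arrays (adjusted p = 0.876 and 0.405). Cxcl15, a lung chemokine of the mouse that was dim here, had mean ratios of -0.08 and, on its second probe, -0.03.

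Pf4, platelet factor 4, a chemokine known from platelet granules and also made by macrophages, had ratios of 2.87 and 2.03 on the late arrays and 1.14 and -0.05 on the early arrays. Its mean was 1.50 ± 1.25 (SD, n = 4), a 2.82-fold difference (adjusted p = 0.0363). Both late arrays were higher than both early ones, but the difference between passages, 1.90, did not pass (adjusted p = 0.820). Of the 6 platelet markers, which include Itga2b and Gp9, 0 were called for genotype by limma's test. None had an unadjusted p under 0.05, against 29.4% of all probes, and their median ratio was 0.02.

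Cxcl16, a membrane-bound ligand of Cxcr6, was measured by 2 probes. The representing probe had ratios of 0.39 and 0.48 late and 0.08 and 0.69 early (mean 0.41, adjusted p = 0.0908). The other probe had 0.37 and 0.75 late and 0.60 and 0.73 early, with a mean of 0.61 ± 0.17 (SD, n = 4, adjusted p = 0.0286). All 8 ratios were above 0, and their average over both probes had an adjusted p of 0.0434. With arrays centred on their medians the call of the second probe was lost, at 0.16 (adjusted p = 0.444), and the representing probe turned to -0.04, so the direction of Cxcl16 depends on the scaling. Cxcl12, the ligand of Cxcr4, had 0.08 and 0.13 late and 0.19 and 0.24 early, and its second probe had 0.57 and 0.24 late and 0.06 and 0.27 early (adjusted p = 0.127 and 0.0958). Cxcl14, made by resting epithelia, had 0.09 and -0.57 late and 0.30 and -0.03 early (adjusted p = 0.827).

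The 3 interferon-inducible ligands of Cxcr3 had no call in limma's test, and 1 had an unadjusted p under 0.05 over the 4 arrays (29.4% of all probes did). Cxcl10 had ratios of -0.01 and 0.09 on the late arrays and 2.35 and 0.94 on the early arrays. Its log2 intensity on the early arrays was 11.94 and 11.23 in F/- samples, against 9.59 and 10.29 in F/+ samples, and on the late arrays 10.33 and 10.82 in F/- samples, against 10.34 and 10.73 in F/+ samples. The genotypes thus differed at the early passage, where F/- samples did not overlap F/+ samples, and lay together at the late one. Neither the early ratio of 1.64 ± 1.00 (SD, n = 2, adjusted p = 0.103) nor the difference between passages of -1.60 (adjusted p = 0.825) passed the test, while with an offset of 0 the mean over the 4 arrays was called (0.86, adjusted p = 0.0485). Cxcl9 and Cxcl11 were dim, with mean ratios of 0.14 and 0.21.

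Among the ligands that guide lymphocytes and dendritic cells, 7 of 8 genes were tested and 0 were called by limma's test. An unadjusted p under 0.05 over the 4 arrays was found for 3, and for 29.4% of all probes. Ccl20, the ligand of Ccr6, had ratios of -1.84 and -0.14 late and -2.27 and -0.45 early, with a mean of -1.18 ± 1.04 (SD, n = 4, adjusted p = 0.140). Every array was below 0, and pair 1 was far lower than pair 2 at both passages, so that the spread lay between pairs. Its log2 intensity was 8.27 and 9.97 late and 8.08 and 9.46 early in F/- samples of pairs 1 and 2, against 10.11 and 10.11 late and 10.35 and 9.91 early in F/+ samples. Ccl27a, the keratinocyte ligand of Ccr10 that draws T cells to skin, had -0.98 and -0.28 late and -0.54 and -0.68 early. All were below 0, with a mean of -0.62 ± 0.29 (SD, n = 4, adjusted p = 0.0522). It was called lower with an offset of 0 (adjusted p = 0.0309), with the stricter filter on dim probes (0.0452), with median centring (-0.82, 0.0291) and without the late array of pair 2 (0.0220).

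The remaining homing ligands had small ratios. Several were faint, with mean log2 signals of 6.67 for Ccl17, 6.92 for Ccl21c and 6.71 for Ccl28. The lowest signals well above background were 5.73 to 6.16, and the offset of 50 draws ratios of faint probes toward 0. With the scanner ratios Ccl21c had -0.83 and -0.05 late and -0.22 and -0.62 early. Small ratios at this level do not show equal expression. Ccl25, known from thymus and gut, had -0.39 and 0.00 late and -0.61 and -0.29 early, while its 2 other probes had mean ratios of 0.04 and 0.10. Ccl17, a Ccr4 ligand, had -0.09 and 0.04 late and 0.25 and -0.08 early. Ccl19, a Ccr7 ligand, had -0.11 and -0.07 late and -0.05 and -0.12 early, while its second probe had 0.02 and 0.09 late and -0.08 and 0.04 early. These values say little of direction, since the adjusted p was 0.106 or above for each. Ccl21c, another Ccr7 ligand, had -0.23 and -0.03 late and -0.04 and -0.39 early. Ccl28, a ligand of Ccr10 at mucosal surfaces, had -0.12 and 0.12 late and 0.04 and 0.07 early. Mouse Ccl19, Ccl21c and Ccl27a have near-identical copies in the genome, whose transcripts these probes may also bind. Ccl24, which attracts eosinophils, had -0.03 and 0.02 late and -0.04 and -0.21 early, and its second probe had -0.07 and 0.07 late and 0.04 and -0.14 early. Both Ccl24 probes were faint as well, with mean log2 signals of 6.50 and 6.49.

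Cx3cl1, or fractalkine, a chemokine held on the cell surface by a mucin stalk, had ratios of 0.24 and 0.81 late and 0.08 and 0.87 early. The mean was 0.50 ± 0.40 (SD, n = 4, adjusted p = 0.129), and pair 2 was the higher at both passages. With median centring both arrays of pair 1 were just below 0, at -0.10 late and -0.09 early. Its second probe had -0.01 and -0.19 late and -0.20 and -0.22 early. The probes of Cx3cl1 therefore differed in sign. The second was faint, with a mean log2 signal of 6.61 against 10.46 for the first, so its sign says little. Xcl1, a chemokine of activated lymphocytes, was dim, with a mean ratio of -0.04. For late minus early, 0 of 42 chemokine probes and 0% of all probes were called, with unadjusted p-values under 0.05 for 6 and for 5.83%.

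More chemokine probes were called for passage than for genotype. In F/- cells 12 of 42 chemokine probes were called, 6 higher and 6 lower at passage 3, which is 28.6% against 5.11% of all probes (2.89% higher and 2.22% lower). In F/+ cells 12 were called, again 6 higher and 6 lower, or 28.6% against 5.66% of all probes (3.23% higher and 2.42% lower). Their median size of change was 0.42 in F/- cells and 0.29 in F/+ cells, where all probes had 0.24 and 0.25. The F/- and F/+ samples shared arrays, so that array effects enter both comparisons. A total of 10 genes were called in both genotypes, with 4 higher and 6 lower at passage 3. The share of all probes called in both was not taken, so this count has nothing to be compared with.

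These counts depended on the early arrays. Without the early array of pair 1, 0 chemokine probes were called in F/- cells and 2 in F/+ cells, Cx3cl1 and Pf4. Without that of pair 2, Cx3cl1 and Ccl9 were called in F/- cells, and Cx3cl1 and Pf4 in F/+ cells. Loess without the further Aquantile step, which sets the average intensities of the arrays to one distribution, gave 7 calls in each genotype. With the pair as a block 8 were called in F/- cells and 11 in F/+ cells.

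**Figure D3:**
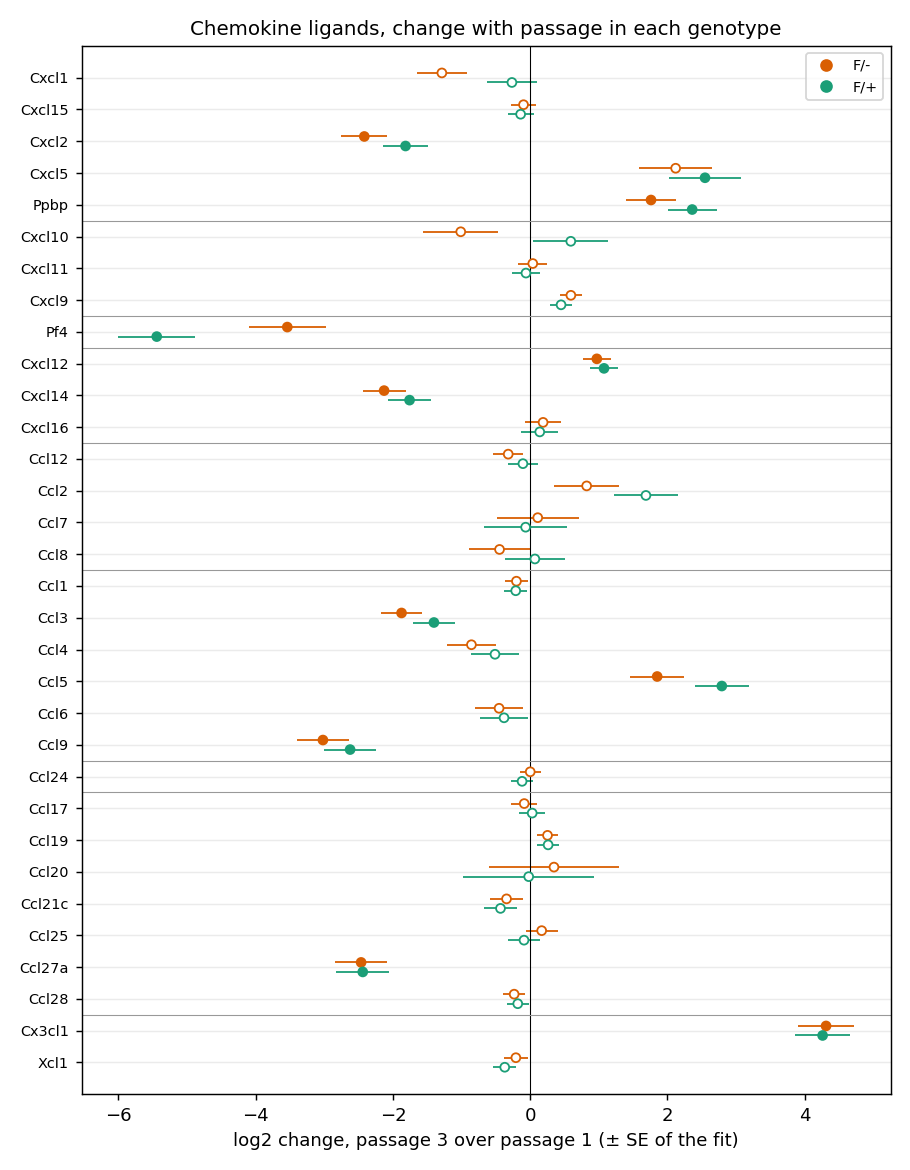
Log2 change of passage 3 over passage 1 (horizontal axis) of the 32 tested chemokine genes in F/- cells (orange) and F/+ cells (green), with the standard error of the fit as a bar and filled points where the adjusted p was under 0.05. Grey lines separate groups by role. Cx3cl1 stands at 4.31 in F/- cells and 4.26 in F/+ cells, and Pf4 at -3.54 in F/- cells and -5.44 in F/+ cells.

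Cx3cl1 rose most. Its normalized log2 intensity was 12.76 and 12.91 in F/- samples and 12.52 and 12.09 in F/+ samples at passage 3, against 8.08 and 8.97 in F/- samples and 8.00 and 8.09 in F/+ samples at passage 1. All late samples were higher than all early samples in both genotypes. The change was 4.31 ± 0.40 (SE) in F/- cells and 4.26 ± 0.40 in F/+ cells (adjusted p = 0.00205 and 0.00195), or 19.9-fold and 19.2-fold. The second Cx3cl1 probe changed by -0.17 in F/- cells and -0.28 in F/+ cells (adjusted p = 0.664 and 0.464), so this rise rests on a single probe. That second probe was faint in every sample, with log2 intensities of 6.37 to 7.08.

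Ccl5 rose in both genotypes on both of its probes. The representing probe had 10.54 and 10.74 in F/- samples and 11.17 and 10.40 in F/+ samples at passage 3, against 8.93 and 8.65 in F/- samples and 8.03 and 7.96 in F/+ samples at passage 1. Late and early samples did not overlap, and the change was 1.85 in F/- cells and 2.79 in F/+ cells (adjusted p = 0.0434 and 0.00906). The second probe gave 1.46 and 2.13 (adjusted p = 0.0496 and 0.0123). In the blocked fit both probes lost the F/- call (adjusted p = 0.0785 and 0.0924).

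Ppbp had 11.56 and 11.95 in F/- samples and 11.52 and 12.19 in F/+ samples at passage 3, against 10.31 and 9.68 in F/- samples and 9.44 and 9.55 in F/+ samples at passage 1. All late samples were the higher, by 1.76 in F/- cells and 2.36 in F/+ cells (adjusted p = 0.0377 and 0.0122). The F/- call was lost with the pair as a block (adjusted p = 0.0739) and without the late array of pair 2 (adjusted p = 0.0818). Cxcl5 had 11.21 and 12.59 in F/- samples and 11.26 and 13.03 in F/+ samples at passage 3, against 9.81 and 9.75 in F/- samples and 9.33 and 9.87 in F/+ samples at passage 1. The late samples were higher and differed between pairs. The change was 2.55 in F/+ cells (adjusted p = 0.0375) and 2.12 in F/- cells (adjusted p = 0.0696), and the F/+ call was lost without the late array of pair 2 (adjusted p = 0.0506).

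Cxcl12 had 9.92 and 9.55 in F/- samples and 9.84 and 9.41 in F/+ samples at passage 3, against 8.93 and 8.59 in F/- samples and 8.74 and 8.36 in F/+ samples at passage 1. Late samples were higher throughout, by 0.97 in F/- cells and 1.08 in F/+ cells (adjusted p = 0.0394 and 0.0258), and neither call remained without the late array of pair 1 (adjusted p = 0.0872 and 0.0548). Its second probe changed by 1.04 in F/- cells (adjusted p = 0.0299) and 0.81 in F/+ cells (adjusted p = 0.0618), and its F/- call was lost in the blocked fit (adjusted p = 0.0595).

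Pf4 fell most. Its log2 intensity was 9.52 and 8.82 in F/- samples and 6.65 and 6.79 in F/+ samples at passage 3, against 13.19 and 12.23 in F/- samples and 12.05 and 12.28 in F/+ samples at passage 1. The early samples of both genotypes lay together, and at passage 3 the F/- samples stayed above the F/+ samples. The change was -3.54 ± 0.56 (SE) in F/- cells and -5.44 ± 0.56 in F/+ cells (adjusted p = 0.0160 and 0.00277), or 11.6-fold and 43.5-fold lower.

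Ccl9 had 9.02 and 8.52 in F/- samples and 8.35 and 8.19 in F/+ samples at passage 3, against 12.07 and 11.50 in F/- samples and 10.73 and 11.06 in F/+ samples at passage 1. It fell by 3.02 in F/- cells and 2.62 in F/+ cells on the log2 scale (adjusted p = 0.00674 and 0.0104). Ccl3 had 6.58 and 6.21 in F/- samples and 6.16 and 6.12 in F/+ samples at passage 3, against 8.49 and 8.04 in F/- samples and 7.44 and 7.64 in F/+ samples at passage 1. Late samples of both genes lay below all early ones. Ccl3 fell by 1.87 in F/- cells (adjusted p = 0.0175), where 1 of the 2 late samples was above background. In F/+ cells it was above background in neither late sample and measured 2.64-fold lower (adjusted p = 0.0433, measured means 6.14 late and 7.54 early). A bound was also taken, with, for each dim array, the higher of its own value and the lowest signal well above background. Here it equalled the measured fold. The bound leaves out the error of the estimate. The F/+ call was lost in the blocked fit (adjusted p = 0.0769) and without the late array of pair 2 (adjusted p = 0.0991). Ccl6 changed by -0.45 in F/- cells and -0.38 in F/+ cells, and neither passed the test (adjusted p = 0.503 and 0.564).

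Both steadily made skin chemokines fell in both genotypes. Ccl27a had 9.51 and 9.12 in F/- samples and 10.49 and 9.40 in F/+ samples at passage 3, against 12.07 and 11.49 in F/- samples and 12.61 and 12.17 in F/+ samples at passage 1. The late samples were lower, by 5.52-fold in F/- cells and 5.42-fold in F/+ cells (adjusted p = 0.0152 and 0.0140). Cxcl14 had 9.62 and 9.53 in F/- samples and 9.53 and 10.09 in F/+ samples at passage 3, against 11.65 and 11.75 in F/- samples and 11.35 and 11.79 in F/+ samples at passage 1. It was 4.37-fold and 3.38-fold lower late in F/- and F/+ cells (adjusted p = 0.0124 and 0.0224).

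Cxcl2 fell too, with 7.49 and 8.53 in F/- samples and 7.26 and 7.85 in F/+ samples at passage 3, against 10.58 and 10.28 in F/- samples and 9.36 and 9.39 in F/+ samples at passage 1. Every late sample lay below every early one. Its changes were -2.42 in F/- cells and -1.82 in F/+ cells (adjusted p = 0.00981 and 0.0249). Cxcl2 thus fell while its fellow Cxcr2 ligand Ppbp rose. Cxcl1 had 13.05 and 14.05 in F/- samples and 13.99 and 14.28 in F/+ samples at passage 3, against 14.61 and 15.05 in F/- samples and 14.22 and 14.58 in F/+ samples at passage 1. Its changes of -1.29 in F/- cells and -0.27 in F/+ cells did not pass (adjusted p = 0.0953 and 0.702).

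**Figure D4:**
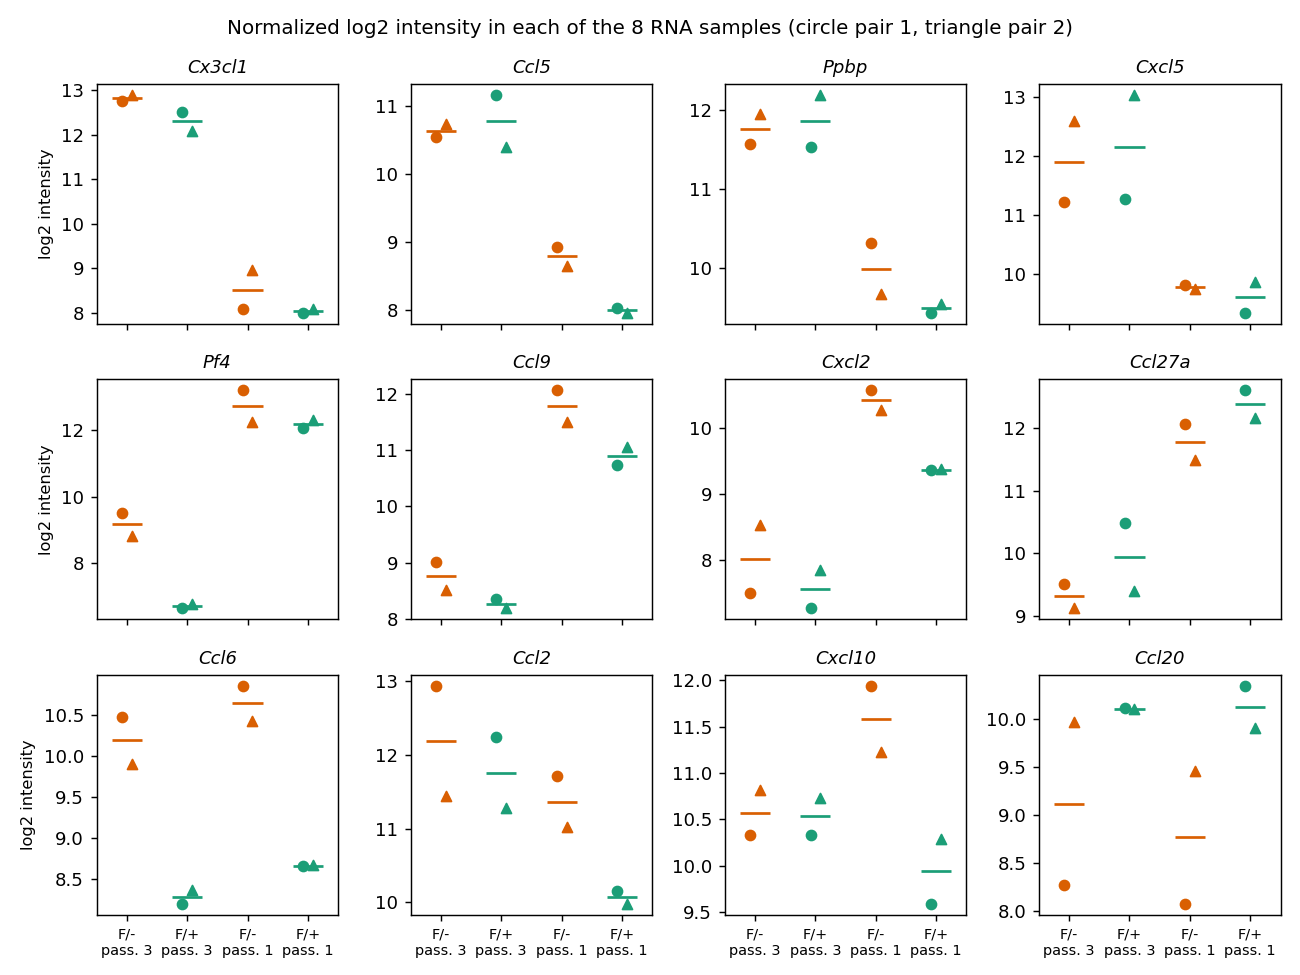
Normalized log2 intensity (vertical axis, own scale in each panel) of 12 chemokine genes in the 8 RNA samples, with F/- in orange and F/+ in green, passage 3 left of passage 1, circles for pair 1, triangles for pair 2 and lines for group means. Cx3cl1, Ccl5, Ppbp and Cxcl5 are higher at passage 3, Pf4, Ccl9, Cxcl2 and Ccl27a are lower, and Ccl6 separates by genotype at both passages.

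Ccl2 had 12.93 and 11.44 in F/- samples and 12.24 and 11.27 in F/+ samples at passage 3, against 11.71 and 11.02 in F/- samples and 10.16 and 9.98 in F/+ samples at passage 1. Its changes were 0.82 in F/- cells and 1.69 in F/+ cells (adjusted p = 0.370 and 0.0899). The F/- samples overlapped between passages and the F/+ samples did not. Cxcl10 changed by -1.01 in F/- cells and 0.59 in F/+ cells, Ccl4 by -0.86 and -0.51, and Ccl20 by 0.35 and -0.02, with no call. Cxcl9 was above background in neither early F/- sample. The bound described for Ccl3 put it 1.49-fold higher late in F/- cells, with no call (adjusted p = 0.0899, measured means 6.79 late and 6.20 early). No chemokine was shown to change differently in the 2 genotypes, since the test of that difference had no call, as given above for late minus early.

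Macrophage markers moved with several of these genes. All 14 markers measured were above the filter, 4 of them (Lyz2, Marco, Msr1 and C1qa) were called higher in F/- cells over the 4 arrays and 0 lower (5.85% of all probes were called higher and 2.99% lower). Their median log2 ratio was 0.63. The ratio was positive for 13 and 14 of the 14 markers on the late arrays and for 14 and 10 on the early arrays, with Pf4 and the markers both lowest on the early array of pair 2. With passage 6 markers fell in F/- cells and 7 in F/+ cells (2.22% and 2.42% of all probes), with medians of -1.58 and -1.72. The mean log2 intensity of the list was 8.29 to 8.71 late and 9.72 to 10.23 early in F/- samples, against 7.58 to 7.63 late and 9.33 to 9.53 early in F/+ samples. Ccl6, Pf4, Ccl9 and Ccl3 are made by macrophages, and so is Ccl4, among others. Not all such ligands moved with the markers. With passage Ccl6 changed by -0.45 and -0.38 and Ccl4 by -0.86 and -0.51 in F/- and F/+ cells, with no call. Ccl5, of the same group by role, rose by 1.85 and 2.79. The part of macrophages in the results was not tested.

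**Figure D5:**
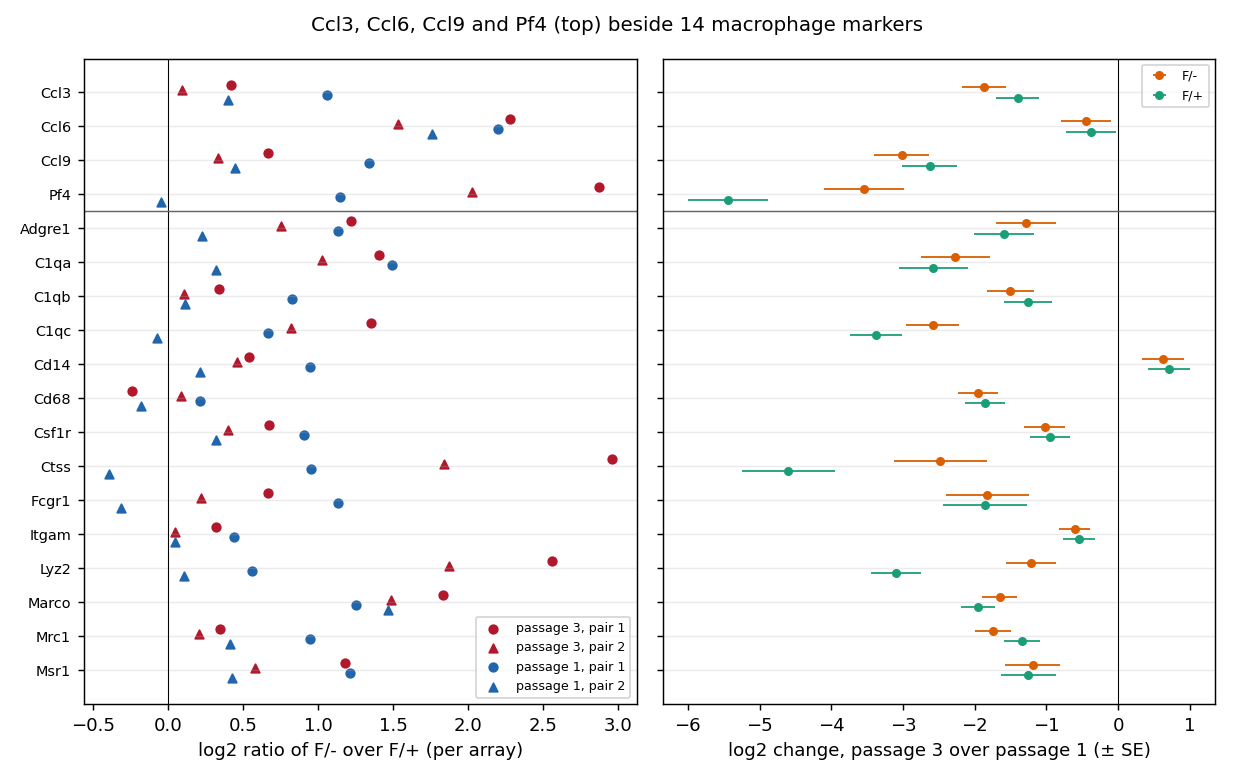
Ccl3, Ccl6, Ccl9 and Pf4 (above the line) and 14 macrophage markers (below it), with the log2 ratio of F/- over F/+ on each array at left and the log2 change of passage 3 over passage 1 with its standard error at right, F/- in orange and F/+ in green. Most markers lie right of 0 at left and left of 0 at right, where Cd14 alone is positive.

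Markers of other cells were read in the same way. None of the 3 tested neutrophil markers, 5 T cell markers, 4 Langerhans and dendritic markers, 5 mast cell markers, 8 fibroblast markers, 5 melanocyte markers or 5 endothelial markers was called by limma's test over the 4 arrays. An unadjusted p under 0.05 was found for 1, 1, 2, 1, 2, 3 and 1 of them, in that order, and for 29.4% of all probes. Of the 8 keratinocyte markers, 3 were called lower in F/- cells, Krt14, Krt15 and Krt5, where 2.99% of all probes were called lower. The median ratio of the fibroblast list was 0.54 late and 0.14 early, with unadjusted p-values under 0.05 for 6 and 1 of its 8 markers (20.0% and 20.6% of all probes). On the late array of pair 1 that median was 0.80 and the highest marker reached 2.32. With passage, 4 of 5 melanocyte markers fell in F/- cells and 3 in F/+ cells, where 2.22% and 2.42% of all probes fell. Of the platelet markers Gp1bb fell in both genotypes, as did 1 of 5 endothelial markers. In F/+ cells 1 of 5 T cell markers rose, where 3.23% of all probes rose. The part of these cells in the chemokine results was not tested.

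Other genes of the pathway were taken from lists of receptors, proteases and inducers. Of 19 chemokine receptors on the array 17 were tested, and 0 were called in any of the 6 comparisons by limma's test. An unadjusted p under 0.05 was found for 1 in the mean ratio and for 2 in each passage comparison. Of all probes, 29.4% had such a p in the mean ratio, and 20.6% and 21.0% in the F/- and F/+ passage comparisons. The 6 decoy and atypical receptors, most of which take up or hold chemokines, had no call either, and none had an unadjusted p under 0.05 in these 3. Among the 17 tested chemokine receptors of the first list, the largest mean ratios were 0.12 for Ccr8 and 0.08 for Cxcr4 upward, and -0.34 for Cxcr2 (adjusted p = 0.0510) and -0.10 for Cxcr3 downward.

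Of 15 tested proteases and protease receptors that act on chemokines or their surroundings, 5 were higher in F/- cells over the 4 arrays and 1 was lower (5.85% and 2.99% of all probes), with a median of 0.30. Mmp13, a collagenase, had a mean ratio of 2.36, Mmp8, the neutrophil collagenase, 1.80, and Mmp9, a gelatinase, 1.55 (adjusted p = 0.0395, 0.0460 and 0.0272). Mmp2 and Mmp12 were higher by 1.17 and 0.75. Dpp4, which trims the amino end of several chemokines, had -0.38 (adjusted p = 0.0492). With passage Plau, the urokinase, rose by 3.14 in F/- cells and 2.46 in F/+ cells (adjusted p = 0.0147 and 0.0311) and was the only one of the list called.

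Of 28 tested inducers, 9 were higher in F/- cells and 1 was lower (5.85% and 2.99% of all probes), with a median of 0.23. Tnf, the cytokine that activates NF-kB, had a mean ratio of 0.97 (adjusted p = 0.0293), and Tnfaip3 and Nfkbia, inhibitors of NF-kB that it induces, had 0.85 and 0.35 (adjusted p = 0.0288 and 0.0345). Relb and Nfkb2, subunits of NF-kB, had 0.57 and 0.56 (adjusted p = 0.0257 and 0.0261), and the others were Tlr2, Il17ra, Irf1 and Il1a. Il33, an epithelial alarmin, had -1.13 (adjusted p = 0.0257). Il18 had -1.08, below 0 on all 4 arrays, and was not called (adjusted p = 0.0687). With passage, Csf2, a myeloid growth factor, and Tlr3, a receptor for double-stranded RNA, rose in both genotypes, by 3.34 and 1.73 in F/- cells and by 4.02 and 1.77 in F/+ cells. Tlr2 rose in F/+ cells by 1.02. Il33 fell by 2.78 in F/- cells and 2.74 in F/+ cells, and Nfkbia fell by 0.86 in F/- cells.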

How the data were processed

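Per the submitters' processing notes, the 4 two-colour arrays were read with Agilent Feature Extraction 9.1.3.1. The deposited scanner files hold raw intensity of spot and local background for each dye and, per the file headers, the log10 ratio of Cy5 over Cy3 made by the scanner software from processed intensities. The value table the authors deposited holds the same log10 ratio with the sign turned, with column medians between -0.00223 and 0. It served as an alternative, in log2 units. No genome build applies to the arrays.

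In limma 3.58.1 under R 4.3.3, spot intensities went through normexp with an offset of 50 and ratios through loess array by array, with control and outlier spots at weight 0. Spots of a probe were averaged, and a probe was kept if 2 or more arrays measured it well above background in either channel and no more than 1 array lacked a value (35563 of 41174). The genotype ratio was fitted to all 4 arrays, with passage as the factor, by lmFit and eBayes, which is limma's moderated test (2 residual and 2.81 prior degrees of freedom). Passage was tested within each genotype by limma's separate-channel fit on 35464 probes, after loess and Aquantile, with a channel correlation of 0.741. P-values are two-sided, adjusted by Benjamini-Hochberg over all probes, and called at 0.05. The p-values rest on the spread between 2 arrays per passage, whose number limits the precision. The number of a pair ties the arrays, because the design text has the same animals at both passages. Deviations of same-numbered arrays correlated at -0.000471 in the ratio, 0.251 in F/- intensity and 0.0301 in F/+ intensity. The pair as a block was an alternative.

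All 35 genes are accounted for. Genes above background on all arrays or called are given with every array. Other pathway genes are named where called, with some of the largest other differences. Members and lists were chosen with earlier results of these data known. Fits were tested on simulated data. Alternatives were the background correction, the filter, the normalization, the scanner ratios, the channel correlation, the pair as a block and leaving out each array. All arrays were on 1 slide.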

Additional observations from a re-analysis of the deposited data

Results flagged for a closer look

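For each of the 32 tested genes, the highest and the lowest of the 4 array ratios were compared with the rest by the gap to the nearest value over the whole range. In 2 genes 1 array stood apart beyond Dixon's critical value. Ccl8 had a log2 ratio of F/- over F/+ of 1.04 on the early array of pair 1 and lay within -0.06 to 0.01 on the others. Ccl4 had 0.87 on the same array and lay within 0.12 to 0.16 on the others. Chance puts about 1 group in 20 beyond this value.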

How the results depend on the processing

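No called chemokine value turned its sign under any alternative run. Of 2297 recomputed values of single chemokine probes, 2181 stayed on their side of the threshold, 89 lost a call and 27 gained one. Most of the 2181 were called neither in the main fit nor in the alternative, and 122 of these changed sign. The main fits called 5 chemokine probes for the mean ratio and 12 for passage in each genotype. The 89 losses fall on these few calls, so the 2297 understate how often calls were lost. Over the 4 arrays, the 3145 genotype calls (2081 higher and 1064 lower) became 1933 with the scanner ratios and 0 with each pair averaged first, and ranged over 0 to 3966 when an array was left out. An offset of 0 gave 3933 calls among all probes, and the replicate block 3242. Centring arrays on their medians gave 3967, with 917 higher and 3050 lower, and moved the array medians to between -0.06 and -0.03. Of the 5 chemokine calls, 0 remained with each pair averaged first, 10 were made with an offset of 0 or with the replicate block, and 0 to 6 when an array was left out (6 without the late array of pair 2). At the early passage alone, an offset of 0 gave 69 calls, of which 1 was a chemokine, Ccl6 (adjusted p = 0.0482). For passage in F/- cells, the 1812 calls became 665 without Aquantile and 2722 with channels taken as independent, and 97 to 3119 when an array was left out, with 7 chemokine probes without Aquantile and 0 to 12 when an array was left out. In F/+ cells, the 2006 calls became 812 without Aquantile and 180 to 4597 when an array was left out, with 7 chemokine probes without Aquantile and 2 to 13 when an array was left out. With the replicate block the passage calls were 1218 in F/- cells and 1435 in F/+ cells. Where 1 array is left, it is assumed to vary like the other passage. Slide could not be a block, since there was 1. The cause of these shifts was not tested. Depth limits 11 of 35 genes, whose signal was not above background in both channels on every array.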

Other observations

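Cxcl3, a Cxcr2 ligand that the array names Gm1960 and that the name rule therefore leaves out, was above background in both channels on all 4 arrays. Its log2 ratios of F/- over F/+ were 0.77 and -0.09 on the late arrays and 1.61 and -0.15 on the early arrays. Pair 1 was above 0 and pair 2 just below it at both passages. Ccl20 also differed by pair, but with pair 1 the lower and both pairs below 0. Cxcl17, which the array names BC024561, was above background on 1 array and was not tested.

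Among the windows upstream of the start, a TATAAA match was found in 32.1% of the 28 chemokine windows, against 12.4% of all windows, and an AP-1 match, TGANTCA, in 14.3% against 6.75%. The chemokine windows with TATAAA were those of Ccl8, Ccl9, Ccl12, Ccl25, Cx3cl1, Cxcl9, Cxcl13, Cxcl15 and Ppbp. Of these, Ccl9 fell with passage in both genotypes, while Cx3cl1 and Ppbp rose.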
